A study of Homo sapiens with 12 samples.

Results

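Notch genes were measured by RNA-sequencing (RNA-seq) in A375 melanoma cells, an established BRAF-mutant human cell line, after 8 h of treatment. The 10 genes were chosen with earlier results of these data known. They were picked by name as members of the pathway: the receptors NOTCH1, NOTCH2 and NOTCH3, the ligands JAG1, JAG2 and DLL1, and the target genes HES1, HES4, HEY1 and HEY2. They were found among the 58347 genes of the count files by their Ensembl identifiers. The 12 libraries formed 4 groups of 3 replicates: vehicle (DMSO), tretinoin, vemurafenib, and both drugs together (the combination). The labels list 5 µM for all of them, also for the vehicle. Vemurafenib is an inhibitor of mutant BRAF, and tretinoin is all-trans retinoic acid, the ligand of the retinoic acid receptors. All groups derive from 1 cell line, and the labels state that drugs were applied in triplicate but do not state whether the dishes were independent cultures, so the p-values measure the spread between these libraries.

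Notch signalling passes between touching cells. A Jagged or Delta ligand on 1 cell binds a Notch receptor on its neighbour, ADAM proteases and then gamma-secretase cut the receptor, and the freed intracellular domain enters the nucleus. There it joins the DNA-binding protein RBPJ and a Mastermind coactivator and switches on HES and HEY genes, which encode basic helix-loop-helix repressors. In the melanocyte lineage the pathway is known for keeping melanoblasts and melanocyte stem cells, and HES1 is also known to respond to growth factor signals.

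The promoters of the target genes HES1, HES4 and HEY2 are shown, and none was available for HEY1. The letters through which RBPJ is known to bind DNA are marked in them. The sequences are those of RefSeq on GRCh38.p14, from 250 bases before to 50 bases after the RefSeq gene start, read along the gene 5′ to 3′. Capitals mark the RBPJ core TGGGAA, or TTCCCA where it lies on the opposite strand. HES1 was read from chr3:194135898-194136197 (plus strand), HES4 from chr1:1000048-1000347 (minus strand) and HEY2 from chr6:125749382-125749681 (plus strand).
HES1: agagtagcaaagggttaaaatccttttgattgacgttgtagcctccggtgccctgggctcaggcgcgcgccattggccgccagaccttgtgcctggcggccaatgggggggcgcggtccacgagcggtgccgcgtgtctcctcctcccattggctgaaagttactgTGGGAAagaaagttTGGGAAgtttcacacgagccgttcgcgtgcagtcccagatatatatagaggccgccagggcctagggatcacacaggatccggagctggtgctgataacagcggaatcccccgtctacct
HES4: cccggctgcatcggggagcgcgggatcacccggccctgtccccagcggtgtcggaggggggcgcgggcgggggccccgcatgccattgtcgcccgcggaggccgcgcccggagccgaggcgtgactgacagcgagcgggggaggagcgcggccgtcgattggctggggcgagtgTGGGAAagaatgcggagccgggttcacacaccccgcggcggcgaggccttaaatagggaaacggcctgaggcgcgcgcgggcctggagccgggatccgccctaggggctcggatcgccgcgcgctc
HEY2: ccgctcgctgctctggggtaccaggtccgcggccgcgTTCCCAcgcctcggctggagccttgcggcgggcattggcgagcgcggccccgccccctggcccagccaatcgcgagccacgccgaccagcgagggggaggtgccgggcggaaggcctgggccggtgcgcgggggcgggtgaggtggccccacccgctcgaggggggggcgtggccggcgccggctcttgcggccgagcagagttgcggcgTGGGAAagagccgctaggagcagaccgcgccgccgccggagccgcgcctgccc

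HES1 held 2 copies of the core, starting 84 and 70 bases before the gene start. HES4 held 1 copy, 76 bases before its start, and HEY2 held 2, of which the copy on the opposite strand began 213 bases and the other 3 bases before the RefSeq start. No copy was found in the same window of NOTCH1, NOTCH2, NOTCH3, JAG1 or JAG2. Promoters of 8 of the 10 genes were in the sequence table. Searched on both strands, TGGGAA occurred in 24.0% of 35116 promoters of 300 bases, so a match is common and describes letters, not occupancy. The hexamers AGGTCA and AGTTCA, to which retinoic acid receptors bind as repeats, occurred in 13.8% and 10.4% of promoters and in none of the 8 windows. CACGTG, a site of HEY proteins, was found in 7.26% of promoters and in none of the 8, and CACNAG, a site of HES proteins, in 38.0% of promoters. HES1 held 4 copies of CACNAG, NOTCH1 held 2, and NOTCH2 and NOTCH3 held 1 each.

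The total count per library lay between 13510235 and 21534377. Pairs of replicates that included tretinoin replicate 1, the shallowest library, differed by a chi-square of 21.4 to 24.42 per degree of freedom, against 2.69 to 9.28 for the other 10 pairs, so values without it are given for each call described here that it changed, and for some that it did not. Of the genes that check the treatments, DUSP6, an ERK-induced phosphatase, was at 122 ± 5.40 CPM (counts divided by the library total and scaled) in DMSO and 1.81 ± 0.364 in vemurafenib (SD, n = 3 each). RARB, a retinoid-induced receptor, was at 1.35 ± 0.0707 CPM in DMSO, 2.47 ± 0.851 in tretinoin, 9.47 ± 1.43 in vemurafenib and 22.1 ± 3.93 in the combination. Neither RARB (log2 fold change 0.82, adjusted p = 0.101) nor the retinoid-induced CYP26A1 (0.51, adjusted p = 0.633) was called with tretinoin against DMSO, while vemurafenib alone raised RARB by 2.80. Of 8 melanocyte lineage markers, MITF (245 to 658 counts), S100B (84 to 206), S100A1 (29 to 56), PMEL (8 to 25) and MLANA (1 to 19) were counted in every library. DCT ran from 0 to 18 counts, SOX10 was at 0 in all 12 and TYR reached at most 1 count. The 8 summed to 27.9 to 32.8 CPM in DMSO, 26.2 to 30.9 in tretinoin, 43.9 to 46.8 in vemurafenib and 40.2 to 42.2 in the combination. Of the 8, MITF was at 17.6 ± 1.88 CPM in DMSO and 32.4 ± 0.714 in vemurafenib. S100B was at 9.08 ± 0.568 and 9.22 ± 0.402, and the rest averaged 2.43 (S100A1) or less in vemurafenib. The 7 markers of leukocytes, endothelium, epithelium and smooth muscle summed to 15.3 to 22.9 CPM in tretinoin, 7.28 to 9.19 in DMSO, 8.33 to 9.46 in the combination and 4.45 to 4.91 in vemurafenib. CDH5, an endothelial cadherin, made up most of the sum in tretinoin, at 13.4 ± 2.22 CPM, against 4.56 ± 0.533 in DMSO. It ran from 200 to 242 counts in tretinoin and from 1 to 4 in vemurafenib, while CD3E, EPCAM and CDH1 stayed at 9 counts or fewer in every library. The leukocyte marker PTPRC was at 1.11 ± 0.561 CPM in DMSO, 3.03 ± 0.891 in tretinoin, 2.80 ± 0.449 in vemurafenib and 3.74 ± 0.744 in the combination. PECAM1 ran from 5 to 36 counts and MYH11 from 6 to 24. Both sums thus differed between treatments, and their part in the results was not tested.

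All 10 Notch genes passed the filter on low counts. Levels here are TMM-normalized CPM, and levels of different genes are compared as CPM per kilobase of exon, since longer transcripts yield more fragments. The length used joins all annotated exons of a gene: 10377 bases for NOTCH1, 16807 for NOTCH2 and 9298 for JAG1. Their longest transcripts have 9306, 11389 and 5940 bases. The order of NOTCH1 and NOTCH2 in DMSO, and of JAG1 and DLL3, may therefore depend on the length chosen. In DMSO the order per kilobase was HES1 (18.8 ± 3.11), HES4 (15.8 ± 3.11), NOTCH1 (10.1 ± 0.983), NOTCH2 (7.79 ± 0.748), JAG1 (3.26 ± 0.414), HEY1 (1.80 ± 0.144), NOTCH3 (1.12 ± 0.218), HEY2 (0.584 ± 0.158), JAG2 (0.337 ± 0.0672) and DLL1 (0.230 ± 0.0550; SD, n = 3 each). Of these neighbours, HES1 and HES4, and JAG2 and DLL1, overlapped between libraries, and the rest did not. Among the 10 genes, NOTCH1 and NOTCH2 were thus the highest receptors, JAG1 the highest ligand and HES1 and HES4 the highest targets. Of the ligand genes outside the 10, DLL3, named after its values were seen, was above JAG1 at 4.37 ± 0.551 in DMSO, and DLK2 was at 1.93 ± 0.503. With vemurafenib the order became NOTCH1 (22.4 ± 1.13), HES4 (18.7 ± 2.22) and NOTCH2 (11.5 ± 0.871), with HES1 (3.36 ± 0.150) now the fourth. In the combination HES4 (19.4 ± 2.42) and NOTCH1 (18.5 ± 0.464) overlapped at the top, and HES1 (5.75 ± 0.289) again followed NOTCH2. In bulk RNA, fewer cells with a transcript and less of it per cell cannot be told apart.

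**Figure D1:**
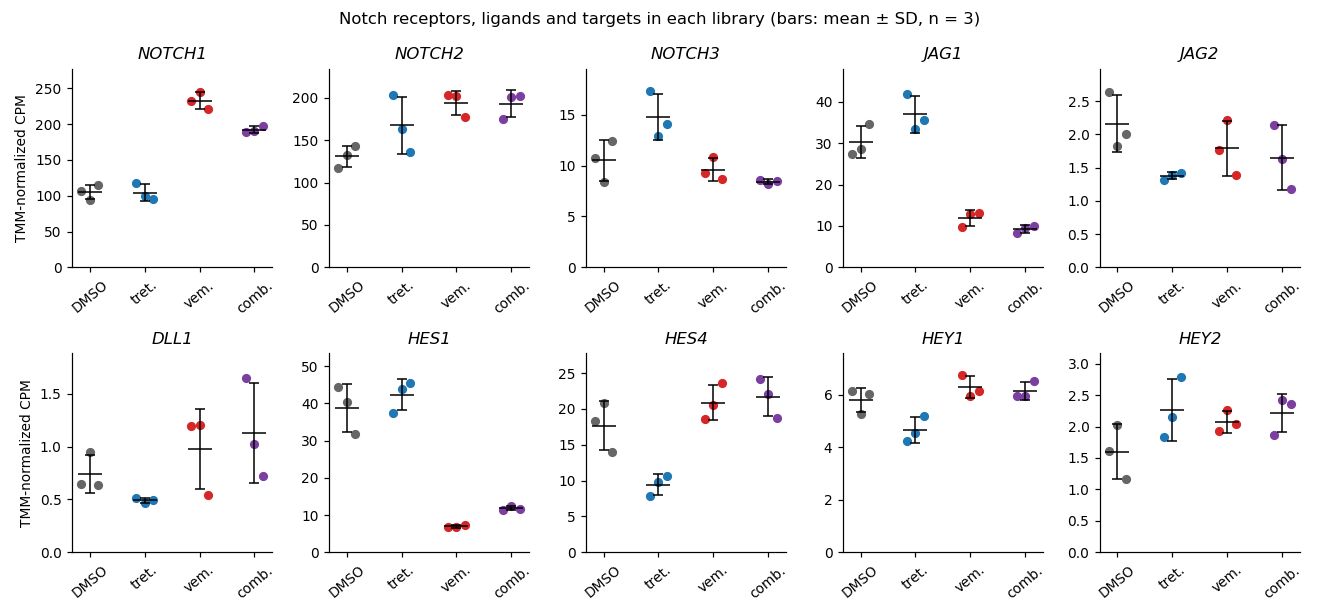
Each panel plots the TMM-normalized CPM (y axis, from 0) of a gene in the 12 libraries, grouped by treatment on the x axis, with the mean and SD of 3 replicates as bars. HES1 and JAG1 sit lower in all 6 libraries with vemurafenib, NOTCH1 sits higher in them, and HES4 is lowest in the 3 tretinoin libraries.

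The receptor genes were compared to ask whether the drugs change the cells' capacity to receive a Notch signal. NOTCH1, which encodes the best-known receptor of the family (ENSG00000148400.9, minus strand of chromosome 9, 136494433 to 136545786, GRCh38), was at 107, 94.1 and 114 CPM in DMSO and at 232, 245 and 221 in vemurafenib. All vemurafenib libraries lay above all DMSO libraries. It rose 2.22-fold with vemurafenib, a log2 fold change of 1.15 (SE 0.085, adjusted p = 4.93e-09), in edgeR's quasi-likelihood test over 16740 genes. In the combination NOTCH1 stood at 189, 190 and 198 CPM and was again apart from DMSO, at a log2 fold change of 0.87 (SE 0.085, adjusted p = 1.48e-07). In tretinoin it stood at 118, 100 and 95.1 CPM, overlapping DMSO, with a log2 fold change of -0.01 (SE 0.085, adjusted p = 0.946). Every combination library was below every vemurafenib library, but the difference of -0.28 (SE 0.083, adjusted p = 0.073) did not pass the threshold. It passed with DESeq2 (-0.28, adjusted p = 0.0249) and in a fit of only those 6 libraries (-0.27, adjusted p = 0.00241).

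NOTCH2, a receptor closely related to NOTCH1 (ENSG00000134250.19, minus strand of chromosome 1, 119911553 to 120069626), rose less. It was at 118, 132 and 143 CPM in DMSO, 203, 202 and 177 in vemurafenib and 174, 201 and 202 in the combination. The vemurafenib and combination libraries lay above DMSO and overlapped each other. Vemurafenib raised NOTCH2 by 0.57 on the log2 scale (SE 0.11, adjusted p = 0.000486). The combination raised it by 0.56 (SE 0.11, adjusted p = 0.00053). These comparisons share the DMSO libraries. With tretinoin NOTCH2 ran from 136 to 203 CPM, the highest value being that of replicate 1, and the log2 fold change of 0.35 (adjusted p = 0.0828) became 0.19 (adjusted p = 0.247) without that library. That change was called without tretinoin replicate 3 (0.48, adjusted p = 0.0119). It was also called with no low-count filter (0.33, adjusted p = 0.00575) and with total counts alone (0.43, adjusted p = 0.0482). Without tretinoin replicate 1, NOTCH2 was called higher in the combination than in tretinoin (0.36, adjusted p = 0.00122, against 0.21 and 0.143 with all libraries). NOTCH2 shares 971 of the 11389 bases of its longest transcript (8.53%) at 98% identity or more with NOTCH2NLA and 2 other annotated genes, so fragments from those bases may not have been assigned to it.

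NOTCH3, a receptor known mainly from vascular smooth muscle (ENSG00000074181.8, minus strand of chromosome 19, 15159038 to 15200981), had the lowest level per kilobase of these receptors in every group. It was at 10.7, 8.38 and 12.5 CPM in DMSO, 17.3, 12.9 and 14.1 in tretinoin, 9.25, 10.8 and 8.65 in vemurafenib and 8.58, 8.18 and 8.51 in the combination. The tretinoin libraries stood above all others. Against DMSO the log2 fold change with tretinoin was 0.47 (SE 0.14, adjusted p = 0.0571), short of the threshold, and 0.35 (adjusted p = 0.159) without tretinoin replicate 1. It was called without DMSO replicate 3 (0.62, adjusted p = 0.0295) and without tretinoin replicate 2 (0.56, adjusted p = 0.0481). It was also called with no low-count filter (0.46, adjusted p = 0.016) and with total counts alone (0.55, adjusted p = 0.0475). Against tretinoin the combination was lower by a log2 fold change of -0.80 (SE 0.14, adjusted p = 0.000138), and -0.68 (adjusted p = 0.000198) without tretinoin replicate 1. Within each library, where no normalization enters, the ratio of NOTCH1 to NOTCH2 per kilobase was 1.31 ± 0.159 in DMSO, 1.02 ± 0.0980 in tretinoin, 1.95 ± 0.0880 in vemurafenib and 1.62 ± 0.120 in the combination (SD, n = 3 each). This ratio was chosen after the values were seen and was not tested. Its level, but not its change between groups, depends on the exon lengths used.

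The ligand genes were compared next. JAG1, which encodes the Jagged1 ligand (ENSG00000101384.11, minus strand of chromosome 20, 10637684 to 10673999), was at 27.5, 28.6 and 34.7 CPM in DMSO, 42.0, 33.5 and 35.6 in tretinoin, 9.66, 12.9 and 13.0 in vemurafenib and 8.25, 9.62 and 9.87 in the combination. No library with vemurafenib reached the lowest library without it. JAG1 fell to 0.391 of its DMSO level with vemurafenib, a log2 fold change of -1.36 (SE 0.13, adjusted p = 1.04e-07), and to 0.306 with the combination, a log2 fold change of -1.71 (SE 0.13, adjusted p = 6.36e-09). Tretinoin alone gave 0.28 (SE 0.12, adjusted p = 0.159; 0.18 and 0.405 without tretinoin replicate 1) and added to vemurafenib -0.35 (SE 0.14, adjusted p = 0.209). Neither passed the threshold, and the interaction of -0.64 (SE 0.18) had an adjusted p of 0.123. With no low-count filter that interaction was called (-0.60, adjusted p = 0.0185). An antisense gene overlaps 79 of the 9298 exon bases of JAG1 (0.850%), and counting ignored the strand.

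JAG2 and DLL1, which encode a second Jagged ligand and a Delta-like ligand, had few counts. JAG2 had 18 to 46 counts per library and DLL1 had 7 to 30. JAG2 stood at 2.64, 1.82 and 2.01 CPM in DMSO and 1.32, 1.39 and 1.42 in tretinoin, apart but with an adjusted p of 0.17 (log2 fold change -0.64, SE 0.27). DLL1 stood at 0.513, 0.465 and 0.493 CPM in tretinoin and at 1.65, 1.02 and 0.724 in the combination. That rise, a log2 fold change of 1.18 (SE 0.41, adjusted p = 0.023), was the only call for either gene in the 6 comparisons, and it was kept in 3 of the 6 fits that left out 1 library. Without combination replicate 1 it was 0.82 (adjusted p = 0.13), without tretinoin replicate 2 it was 1.13 (adjusted p = 0.0649) and without tretinoin replicate 3 it was 1.18 (adjusted p = 0.0581). Of the JAG2 exon bases, 469 of 6397 (7.33%) also belong to another annotated transcript.

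**Figure D2:**
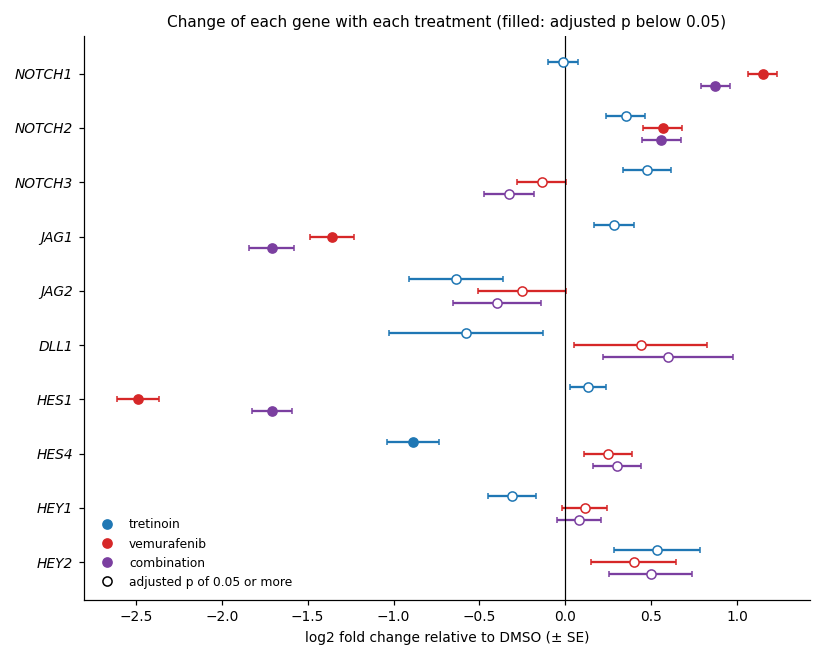
Points give the log2 fold change of each gene relative to DMSO (x axis) with its SE, coloured by treatment, and filled where the adjusted p is below 0.05. HES1 and JAG1 lie far to the left and NOTCH1 to the right with vemurafenib and the combination, and HES4 is the only filled point of tretinoin.

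Among the targets, HES1 changed most. HES1, a repressor that represses its own promoter (ENSG00000114315.3, plus strand of chromosome 3, 194136145 to 194138732), was at 44.4, 40.3 and 31.8 CPM in DMSO and 37.5, 44.0 and 45.5 in tretinoin. It dropped to 6.80, 6.69 and 7.27 CPM in vemurafenib and stood at 11.4, 12.5 and 11.6 in the combination. The combination libraries all lay between the vemurafenib libraries and those without vemurafenib. With vemurafenib HES1 fell to 0.178 of its DMSO level, a log2 fold change of -2.49 (SE 0.12, adjusted p = 2.82e-11), and with the combination to 0.306, a log2 fold change of -1.71 (SE 0.12, adjusted p = 1.45e-09). Tretinoin added to vemurafenib raised it 1.72-fold, by 0.78 on the log2 scale (SE 0.13, adjusted p = 0.00114). This call was kept in all 6 fits that left out 1 library of those groups (0.74 to 0.81, adjusted p at most 0.0119). Tretinoin alone gave 0.13 (SE 0.11, adjusted p = 0.494), and the difference between these effects, the interaction of the drugs, was 0.65 (SE 0.17, adjusted p = 0.0877), short of the threshold. The interaction of HES1 was called with no low-count filter (0.68, adjusted p = 0.00495) and without DMSO replicate 3 (0.78, adjusted p = 0.0217).

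HES4, a HES family repressor present in humans and absent from the mouse (ENSG00000188290.10, minus strand of chromosome 1, 998962 to 1000172), was the gene that tretinoin lowered. It was at 18.3, 20.8 and 13.9 CPM in DMSO and 7.84, 9.82 and 10.6 in tretinoin, with no overlap. The log2 fold change of -0.89 (SE 0.15, adjusted p = 0.00192) was kept without tretinoin replicate 1 (-0.78, adjusted p = 0.00179). In vemurafenib HES4 stood at 18.6, 20.5 and 23.6 CPM and in the combination at 24.2, 22.1 and 18.8, overlapping each other and DMSO. Against DMSO, vemurafenib gave a log2 fold change of 0.25 (SE 0.14, adjusted p = 0.153). For the combination it was 0.30 (SE 0.14, adjusted p = 0.0804), and between the combination and vemurafenib 0.05 (SE 0.14, adjusted p = 0.935). Scaling by total counts alone called HES4 higher with vemurafenib (0.44) and with the combination (0.46). With the combination it was also called with no low-count filter (0.30, adjusted p = 0.0405) and in a fit of only the 6 libraries compared (0.32, adjusted p = 0.034). Tretinoin lowered HES4 in cells without vemurafenib, and the difference between its effects with and without vemurafenib was itself called (0.94, SE 0.21, adjusted p = 0.0395). That interaction was kept in 5 of 12 fits that left out 1 library, and is described with those values in the closing section. Against tretinoin, HES4 was 2.28-fold higher in the combination (log2 fold change 1.19, SE 0.15, adjusted p = 3.95e-06; 1.08 and 1.33e-06 without tretinoin replicate 1).

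The ratio of HES1 to HES4 per kilobase within each library separated all 4 groups. It was 1.32, 1.05 and 1.24 in DMSO, 2.59, 2.43 and 2.32 in tretinoin, 0.198, 0.177 and 0.167 in vemurafenib and 0.257, 0.308 and 0.335 in the combination. By this measure HES1 was the more abundant in every library without vemurafenib, and HES4 in every library with it. The level of the ratio, but not its change between groups, depends on the exon lengths used. These were 2062 bases for HES1 and 1118 for HES4, while their longest transcripts have 1578 and 1040. The pair was chosen after the values were seen, and the ratio was not tested.

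**Figure D3:**
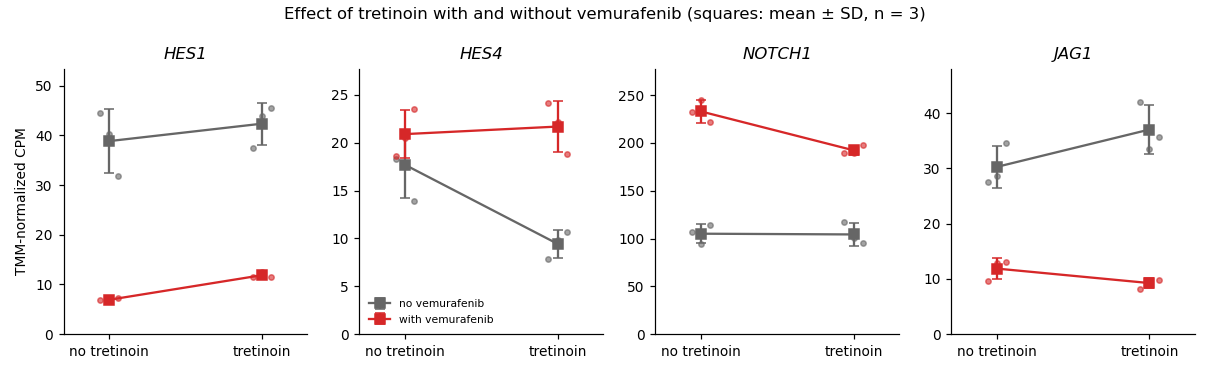
Mean CPM (y axis, from 0; squares with SD, n = 3, and dots for libraries) of HES1, HES4, NOTCH1 and JAG1 without and with tretinoin (x axis), in grey without and in red with vemurafenib. For HES4 the grey line falls from 17.7 to 9.43 CPM while the red line runs from 20.9 to 21.7.

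The HEY genes encode repressors related to HES with a role in vessels and heart. Of these, only HEY1 was called, and only in the combination against tretinoin. HEY1 was at 6.12, 5.27 and 6.02 CPM in DMSO, 4.25, 4.53 and 5.20 in tretinoin, 6.75, 5.97 and 6.13 in vemurafenib and 5.94, 5.95 and 6.52 in the combination. Its tretinoin libraries lay below all others. Against DMSO the log2 fold change of -0.31 (SE 0.14, adjusted p = 0.183) did not pass, while the combination exceeded tretinoin by 0.39 (SE 0.13, adjusted p = 0.0217). That call was lost without tretinoin replicate 1 (0.33, adjusted p = 0.0713), tretinoin replicate 2 (0.36, adjusted p = 0.0731) or combination replicate 3 (0.33, adjusted p = 0.0848). It was also lost with DESeq2 (0.37, adjusted p = 0.0638) and with no low-count filter (0.40, adjusted p = 0.0758). HEY2, with 22 to 52 counts per library, ran from 1.16 to 2.03 CPM in DMSO, 1.83 to 2.79 in tretinoin, 1.92 to 2.26 in vemurafenib and 1.87 to 2.42 in the combination, and was called in none of the 6 comparisons. Its log2 fold change with tretinoin was 0.53 (SE 0.25, adjusted p = 0.206 in edgeR). With vemurafenib it was 0.40 (adjusted p = 0.188) and with the combination 0.50 (adjusted p = 0.0942). Without DMSO replicate 2, HEY2 was called higher with the combination (0.70, adjusted p = 0.0421). Scaling by total counts alone called HEY2 higher with vemurafenib (0.59, adjusted p = 0.0474) and with the combination (0.66, adjusted p = 0.0271).

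Counted over the 10 genes, vemurafenib raised 2 (NOTCH1 and NOTCH2) and lowered 2 (JAG1 and HES1), where 26.4% and 26.3% of all 16740 genes tested were called higher and lower. The combination raised and lowered these 4 genes in the same directions, against a background of 27.1% higher and 26.5% lower. The number of Notch genes called was thus near or below the background. The size of the changes of NOTCH1, JAG1 and HES1 was not compared with that of all genes. Tretinoin raised 0 and lowered HES4, against 3.48% higher and 2.20% lower among all genes. DESeq2 also called 0 higher, and 4 of the 10 were higher at an unadjusted p under 0.05 in edgeR. Tretinoin added to vemurafenib raised HES1 and lowered 0, against 2.27% higher and 2.20% lower. DESeq2 called 1 lower, and 2 were lower at an unadjusted p under 0.05 in edgeR. Vemurafenib added to tretinoin raised NOTCH1, DLL1, HES4 and HEY1 and lowered NOTCH3, JAG1 and HES1, 7 of 10 genes, against 24.1% higher and 25.0% lower. The interaction was called higher for HES4 and lower for 0 genes, against 0.382% and 0.424%. DESeq2 also called 0 lower, and 4 were lower at an unadjusted p under 0.05 in edgeR. The median log2 fold change of the 10 genes was 0.18 with vemurafenib and 0.19 with the combination, beside 0.02 and 0.03 over all genes.

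Scaling by total counts alone, in place of TMM, moved the median log2 fold change of all genes to 0.21 for vemurafenib and 0.19 for the combination. Among all called genes the share that was higher then became 71.4% for vemurafenib, from 50.1%, and 68.2% for the combination, from 50.5%. It also became 81.3% for tretinoin, from 61.3%, 60.7% for the combination against tretinoin, from 49.0%, and 21.4% for the interaction, from 47.4%. No called change of a Notch gene turned direction under that scaling. HES1 and JAG1 stayed lower and NOTCH1 and NOTCH2 higher in every alternative run, and HES4 stayed lower with tretinoin.

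For each Notch gene the gene with the most similar course over the 4 group means was found by the distance between centred log2 CPM profiles. HES1 lay nearest to CLDN1, at a distance of 0.16, and JAG1 nearest to TSPAN18 (0.13). NOTCH1 lay nearest to SLC25A29 (0.031), NOTCH2 to GGA3 (0.010), NOTCH3 to PLEKHH2 (0.059), JAG2 to EZR (0.022) and DLL1 to TIGD3 (0.040). HES4 lay nearest to HIST1H3J (0.045), HEY1 to ATP5IF1 (0.0038) and HEY2 to FAM184A (0.028). No Notch gene was the nearest to another. The distance takes no account of the spread between replicates, and a nearest gene exists for any profile. NOTCH3, JAG2, DLL1, HEY1 and HEY2 had no call against DMSO with any treatment. Whether genes with similar profiles share regulation was not tested. The distances of HES1 and JAG1 were the widest of the 10.

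The remaining machinery of the pathway was described from a list of 56 other genes, also chosen with earlier results of these data known. Of the 56, 52 passed the filter. Vemurafenib raised 15 of these 52 and lowered 12, the combination raised 16 and lowered 16, and tretinoin raised 5 and lowered 2. Over all genes, 26.4% and 26.3% were higher and lower with vemurafenib, 27.1% and 26.5% with the combination and 3.48% and 2.20% with tretinoin. Without tretinoin replicate 1, tretinoin raised 3 and lowered 2 of the 52, and 4 of its calls were kept. Tretinoin added to vemurafenib raised 3 and lowered 3, and 0 were called for the interaction in edgeR, where 5 were higher and 8 lower at an unadjusted p under 0.05. The median log2 fold change of the 52 genes was 0.08 with vemurafenib and 0.10 with the combination, beside 0.02 and 0.03 over all genes. The receptor NOTCH4 passed the filter with 8 to 31 counts and was called in no comparison.

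Ligands and the enzymes that modify or mobilize them included the widest changes. DLK2, an atypical ligand without the domain that activates receptors, averaged 4.31 ± 1.13 CPM in DMSO, 5.17 ± 0.879 in tretinoin, 10.1 ± 0.288 in vemurafenib and 18.8 ± 1.12 in the combination (SD, n = 3 each). It rose by 1.23 (SE 0.15) with vemurafenib, by 2.13 (SE 0.15) with the combination and by 0.90 (SE 0.13, adjusted p = 0.000215) when tretinoin was added to vemurafenib. NEURL1B, a ubiquitin ligase of the Neuralized family that acts on ligands, rose from 1.11 ± 0.370 CPM in DMSO to 5.48 ± 1.24 in vemurafenib and 4.33 ± 0.618 in the combination, by 2.30 (SE 0.25) and 1.95 (SE 0.26) on the log2 scale. Of 5 glycosyltransferases that modify the receptor, tretinoin raised 2 and lowered 0, where 3.48% of all genes were higher and 2.20% lower. The 2 were LFNG, by 0.46 (SE 0.093, adjusted p = 0.00669), and MFNG, by 0.64 (SE 0.17, adjusted p = 0.0373). Without tretinoin replicate 1 LFNG was kept (0.42, adjusted p = 0.0122) and MFNG was not (0.57, adjusted p = 0.0837). LFNG also rose with vemurafenib (0.38, SE 0.092) and further when tretinoin was added to it (0.34, SE 0.088, adjusted p = 0.0326). LFNG and MFNG are Fringe enzymes, which shift receptors between Delta and Jagged ligands.

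Among the enzymes that cut the receptor, 3 of 6 gamma-secretase genes rose with vemurafenib and none fell, where 26.4% of all genes were higher and 26.3% lower. With vemurafenib 2 of 5 glycosyltransferases and 2 of 4 ligand ubiquitin ligases also rose and none fell. APH1B, a subunit of the complex, rose from 3.89 ± 0.713 CPM in DMSO to 13.2 ± 0.608 in vemurafenib, a log2 fold change of 1.76 (SE 0.14, adjusted p = 1.04e-08), and stood at 8.86 ± 1.08 in the combination, lower than with vemurafenib alone by a log2 fold change of -0.57 (SE 0.12, adjusted p = 0.00829). FURIN, the convertase that matures Notch receptors and many other proteins, fell from 205 ± 4.98 CPM in DMSO to 112 ± 2.42 in vemurafenib and 97.4 ± 8.03 in the combination. Its log2 fold change was -0.88 (SE 0.071) and -1.07 (SE 0.071).

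In the nucleus the Mastermind coactivators divided. MAML3 fell from 17.1 ± 0.401 CPM in DMSO to 8.81 ± 1.39 in vemurafenib and 7.36 ± 0.745 in the combination, by log2 fold changes of -0.95 (SE 0.12) and -1.21 (SE 0.12). MAML2 rose by 0.97 (SE 0.14) with vemurafenib, 0.93 (SE 0.14) with the combination and 0.49 (SE 0.14, adjusted p = 0.0486) with tretinoin, a call that was lost without tretinoin replicate 1 (0.37, adjusted p = 0.133). KAT2B, an acetyltransferase, was lower in the combination than with vemurafenib by -0.50 on the log2 scale (SE 0.12, adjusted p = 0.0168). Of 10 corepressor genes, vemurafenib lowered 5 and raised none, and the combination lowered 6 and raised 2, where 26.3% and 26.5% of all genes were lower and 26.4% and 27.1% higher. The 5, named after their values were seen, were TLE1, TLE3 and TLE4, Groucho-type partners of HES proteins, with log2 fold changes of -0.77, -0.85 and -0.87, and CTBP2 (-0.47) and SPEN (-0.32). Other genes overlap 34.7% of the exon bases of CTBP2. TLE1 also fell with tretinoin (-0.34, SE 0.084, adjusted p = 0.023), as it did without tretinoin replicate 1 (-0.41, adjusted p = 0.00512).

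Regulators of receptor turnover were split, with 4 of 8 higher and 2 lower with vemurafenib (26.4% and 26.3% over all genes). NUMBL, a relative of the Notch inhibitor NUMB, rose by 0.82 (SE 0.069, adjusted p = 2.87e-08) with vemurafenib and was lower in the combination by a log2 fold change of -0.54 (SE 0.068, adjusted p = 6.08e-05). With tretinoin against DMSO its -0.23 (adjusted p = 0.0749) became a call without tretinoin replicate 1 (-0.28, adjusted p = 0.0245). ITCH, a ubiquitin ligase that targets Notch receptors among others, rose with tretinoin (0.31, SE 0.070, adjusted p = 0.0142; 0.24 and 0.0244 without tretinoin replicate 1) and when tretinoin was added to vemurafenib (0.25, SE 0.070, adjusted p = 0.0462). Of the other HES and HEY genes, HES2 fell with tretinoin, from 4.96 ± 0.972 to 3.12 ± 0.405 CPM (log2 fold change -0.67, SE 0.18, adjusted p = 0.036; -0.66 and 0.0553 without tretinoin replicate 1). HES5, HEYL, the ligand gene DLK1 and NRARP, a feedback inhibitor induced by Notch, did not pass the filter, and NRARP had at most 3 counts in any library.

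**Figure D4:**
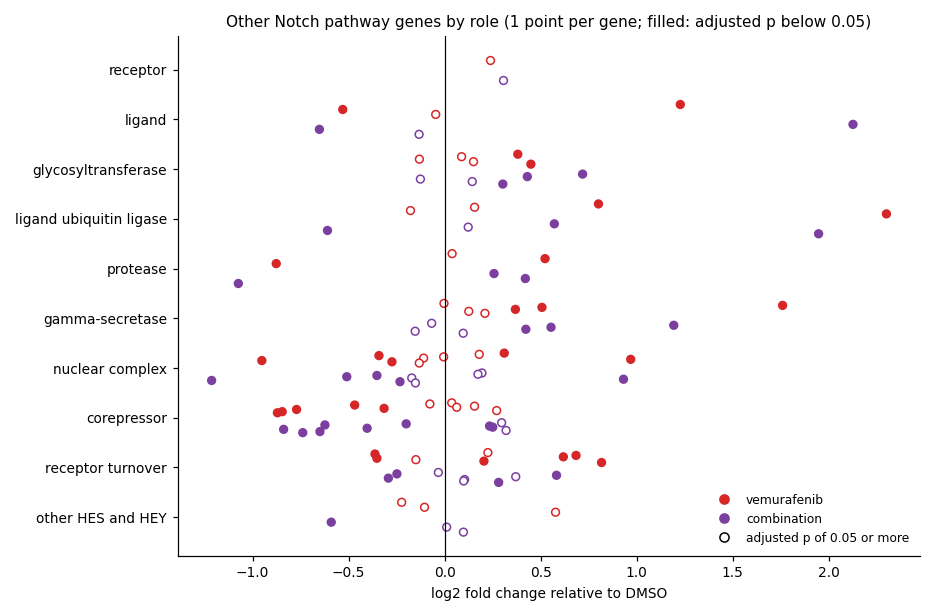
Each point is 1 of the 52 other pathway genes that were tested, placed by role (y axis) and by its log2 fold change relative to DMSO (x axis), red for vemurafenib and purple for the combination, filled where the adjusted p is below 0.05. The called corepressors lie to the left with vemurafenib. The called gamma-secretase genes (3 of 6), glycosyltransferases (2 of 5) and ligand ubiquitin ligases (2 of 4) lie to the right with it. The other roles are mixed or hold no called gene with vemurafenib.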

How the data were processed

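Raw counts of fragments per gene were deposited by the authors, who aligned paired-end reads from poly(A)-selected RNA to GRCh38.p10 with STAR 2.5.3a and counted them on GENCODE 27 genes in union mode, ignoring the strand. The counts were not normalized. Of 58347 genes, 58084 were found in GENCODE 29, which gave symbols, positions and exon lengths. Genes were filtered with filterByExpr (16740 kept), and TMM scaling was applied (edgeR 4.0.16, run in R 4.3.3). All 12 libraries entered 1 quasi-likelihood model with a coefficient for each treatment. The fitting code was also run on simulated counts with changes in the combination only. Those counts held no outlying library, so they do not test the fit under that condition. P-values were adjusted over all 16740 genes by the Benjamini-Hochberg method (threshold 0.05). The SE is the log2 fold change over the square root of F. CPM used TMM-adjusted library sizes, and profiles used log2 CPM with a prior count of 2. Shared sequence was sought with blastn 2.17.0 (at least 150 bases, 98% identity). Alternatives were DESeq2 1.42.0 with a beta prior, other scalings and filters, only the groups compared, a replicate block, and each library left out. The Notch genes and lists were chosen with earlier results of these data known. Other pathway genes were named if called with tretinoin, on adding tretinoin to vemurafenib or for the interaction, or if changed by at least 1 on the log2 scale with vemurafenib or the combination with the replicates apart. A gene that met this rule is not reported here. Clone-based names were not counted as symbols in the search for similar profiles. Same-numbered replicates did not deviate together (18 pairs, correlation -0.14 to 0.087), so the numbers were not taken to pair libraries.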

Additional observations from a re-analysis of the deposited data

Results flagged for a closer look

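HES4 was singled out because the effect of tretinoin on it differed between cells with and without vemurafenib. Without vemurafenib, HES4 went from 17.7 ± 3.48 CPM in DMSO to 9.43 ± 1.43 in tretinoin, and with vemurafenib from 20.9 ± 2.48 to 21.7 ± 2.71 in the combination (SD, n = 3 each). The interaction was 0.94 on the log2 scale (SE 0.21, adjusted p = 0.0395 in edgeR's quasi-likelihood test over 16740 genes). It kept its sign in all 12 fits that left out 1 library (0.81 to 1.09) and passed the threshold in 5 of them, with adjusted p between 0.0166 and 0.129. It was lost without DMSO replicate 1 or 2, tretinoin replicate 2, vemurafenib replicate 1 or 2, or combination replicate 1 or 2. Without tretinoin replicate 1 it was 0.83 (adjusted p = 0.0218). In the reported fit the other 9 Notch genes had an adjusted p of 0.0877 or more for this contrast. With no low-count filter HES1 was also called higher (0.68, adjusted p = 0.00495). JAG1 (-0.60, adjusted p = 0.0185) and NOTCH3 (-0.63, adjusted p = 0.0482) were then called lower. HES1 was also called without DMSO replicate 3 (0.78, adjusted p = 0.0217).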

How the results depend on the processing

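With 1 setting changed at a time, no called change of a Notch gene reversed, and 781 of 823 single-gene values kept their side of the threshold. Counts of Notch genes called kept within 1.5 times of the reported count in 143 of 166 cases. Both totals include genes never called and counts of 0 that stayed 0. Of the calls, the HES4 interaction was kept in 5 of 12 fits that left out 1 library. The calls of DLL1 and HEY1 in the combination against tretinoin were each kept in 3 of 6 such fits. With total counts alone, 2 genes were called higher with tretinoin (NOTCH2 and NOTCH3), 4 with vemurafenib, 4 with the combination, and 0 for the interaction. Of all 16740 genes, that scaling called 758, 6575, 6242 and 36 higher in these comparisons. With no low-count filter, 2 were called higher with tretinoin (NOTCH2 and NOTCH3). For the interaction, 2 were then higher (HES1 and HES4) and 2 lower (JAG1 and NOTCH3). Of the 41806 genes then tested, 736 were higher with tretinoin, and 389 higher and 221 lower for the interaction. DESeq2 and the fit of only the groups compared each called 1 gene, NOTCH1, lower in the combination than with vemurafenib. Over all genes they called 440 of 15616 and 685 of 16320 lower. With the replicate block, the interaction was called for 0 genes (HES4 0.94, adjusted p = 0.0775), and no other call changed. The replicate numbers share no stated batch, and the block has fewer residual degrees of freedom. Leaving out 1 library, the Notch genes called numbered 0 to 1 higher and 1 to 1 lower with tretinoin, 2 to 3 and 2 to 2 with vemurafenib, 2 to 4 and 2 to 3 with the combination, 1 to 1 and 0 to 0 for the combination against vemurafenib, 2 to 4 and 3 to 3 against tretinoin, and 0 to 2 and 0 to 0 for the interaction. Of 17077 to 17206 genes tested, those fits called 273 to 711 higher and 106 to 656 lower with tretinoin. With vemurafenib it was 3797 to 4107 and 3917 to 4219, and with the combination 3923 to 4173 and 4004 to 4242. The combination against vemurafenib had 254 to 343 and 203 to 271, and against tretinoin 3487 to 4009 and 3818 to 4271. The interaction had 31 to 121 and 27 to 144. The count of Notch genes called higher with tretinoin rose to 1 without DMSO replicate 3 or tretinoin replicate 2 or 3. The count with the combination rose to 4 without DMSO replicate 2 (NOTCH3 was then also called lower, at -0.46), and that against tretinoin dropped to 2 without tretinoin replicate 2. Across all genes, tretinoin called 583 higher and 368 lower, but 234 and 71 in the fit of its 6 libraries, 581 and 681 with DESeq2, 736 and 804 with no filter, 429 and 219 with the block, 758 and 174 with total counts, and 273 and 106 without DMSO replicate 2. The combination against vemurafenib called 380 and 369, but 584 and 685 in the fit of its 6 libraries. Total counts lowered the genes called lower to 2628 from 4400 with vemurafenib and to 2916 from 4440 with the combination. The interaction called 64 higher and 71 lower, but 389 and 221 with no filter, 134 and 134 with DESeq2, 39 and 36 with the block and 36 and 132 with total counts. The causes were not tested. JAG2, DLL1 and HEY2 had 52 or fewer counts per library. The fit of the other pathway genes without tretinoin replicate 1 was added after the data were seen.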
